A study of Mus musculus with 12 samples.

Results

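The 10 genes described here mark the sinusoidal endothelial cells of the liver. They were measured in mice that had been made obese by diet, after gastric surgery or calorie restriction. The genes were Stab1, Stab2, Lyve1, Clec4g, Fcgr2b, Oit3, Kdr, Pecam1, Gpr182 and Bmp2, chosen by name, and all 10 were found among the 46078 genes of the count table. The table was made by RNA sequencing of whole liver from 12 mice, 4 in each of 3 groups. All were male C57BL/6J mice (C57BL/6 in the labels) with diet-induced obesity and were 21 weeks old. The VSG group had a vertical sleeve gastrectomy, which removes most of the stomach, and went back to the high-fat diet. The Sham-WM group had sham surgery and was then given restricted amounts of food so that body weight matched that of the VSG group. The Sham-Ad lib group had sham surgery and ate without restriction. Every group therefore shared the obesity before the operation, the high-fat diet, laparotomy and perioperative drugs. Body weight at the end was not shared: the paper reports that VSG and Sham-WM mice had lost weight and weighed less than Sham-Ad lib mice. The mice were culled 16 days after the operation, having been deprived of food for 5 hours. Libraries are named by the animal number in the sample titles (18F, for example).

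Sinusoidal endothelial cells form the wall of the small blood channels between the plates of hepatocytes. They are perforated by open fenestrae, rest on almost no basement membrane, and take up large amounts of waste macromolecules and immune complexes from blood through scavenger and Fc receptors. Hepatocytes make VEGF, which acts on the endothelial receptor KDR, and the endothelial cells in turn make BMP2 and BMP6, which drive hepcidin expression in hepatocytes. When these cells lose their specialised state they come to look like ordinary capillary endothelium. In RNA of whole liver, fewer endothelial cells and less of a transcript per endothelial cell cannot be told apart.

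All 10 genes were detected in every library, with between 64 counts (Lyve1) and 984 counts (Fcgr2b) per library. Library totals ran from 15122520 to 19384076 counts. Levels are given as CPM, in which counts were divided by library sizes corrected with TMM factors, and differences as log2 fold changes from edgeR's quasi-likelihood test, fitted to all 13054 genes that passed its filter on low counts. Adjusted p-values are Benjamini-Hochberg values over those genes, and a gene was called at an adjusted p under 0.05. The column names end in a running number whose meaning is not given in the sources used here, and each group holds its own unbroken stretch of these numbers, so an effect of whatever that order stands for and an effect of treatment cannot be told apart. A second label field pairs the titles with other libraries. The animal numbers in titles and column names were followed, and grouping by the second field instead gave 0 called genes of all tested in each of the 3 comparisons.

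Of the 10 genes, 2 were called between VSG and Sham-WM, where 26.9% of all genes tested were called, and both were lower after VSG. Kdr, the main VEGF receptor of endothelium, was 1.85-fold lower in VSG than in Sham-WM livers, and Bmp2, the endothelial ligand that induces hepcidin, was 1.92-fold lower. No gene of the 10 was called against Sham-Ad lib after either treatment, where 0.751% (VSG) and 6.99% (Sham-WM) of all genes were called. The scavenger receptor Stab2 and the lectin Clec4g had log2 fold changes near 0 between VSG and Sham-WM, and Lyve1 had a higher mean in VSG without passing the test.

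**Figure D1:**
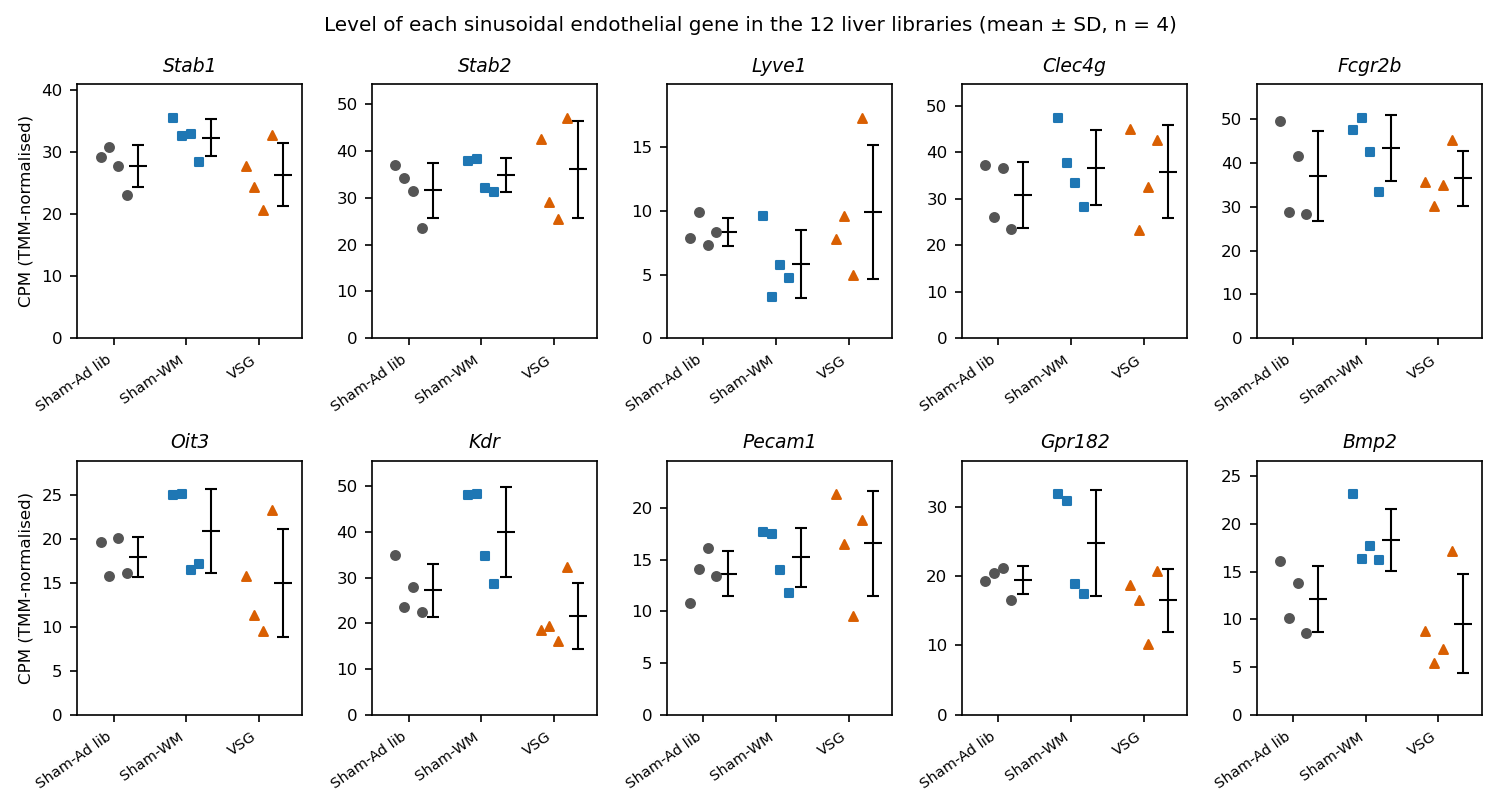
CPM of each of the 10 genes in each library (points, in the order 3F, 4F, 6F, 10F for Sham-Ad lib, 2F, 9F, 15F, 16F for Sham-WM and 1F, 8F, 11F, 18F for VSG), with the mean and SD of 4 libraries beside them and linear axes from 0. For Kdr, 3 VSG libraries lie between 16.1 and 19.4 CPM, below all 8 libraries of the other groups, and 18F lies at 32.3.

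Promoter sequence is shown for Kdr, the gene with the lowest adjusted p among the 10, and for Stab1 and Stab2, the pair whose levels varied together most closely between libraries. The sequences are from RefSeq on GRCm38.p6 and are the 250 bases before the annotated start, read along the gene's own strand. Of the 10 genes, 5 (Stab1, Stab2, Clec4g, Fcgr2b and Kdr) had such a window. Capitals mark CAGGAA, a form of the ETS factor site that contains its core GGAA, or the reverse complement TTCCTG. Other forms were not searched for, and GGAA outside CAGGAA is not marked, so a window without capitals may still hold an ETS core. Kdr lies on the minus strand of chromosome 5 (window chr5:75978456-75978705), Stab1 on the minus strand of chromosome 14 (chr14:31168642-31168891) and Stab2 on the minus strand of chromosome 10 (chr10:87007943-87008192).
Kdr: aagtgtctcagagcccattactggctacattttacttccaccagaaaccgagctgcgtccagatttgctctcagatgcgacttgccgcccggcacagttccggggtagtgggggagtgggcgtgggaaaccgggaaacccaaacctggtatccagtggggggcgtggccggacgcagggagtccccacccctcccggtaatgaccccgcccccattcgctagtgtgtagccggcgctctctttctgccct
Stab1: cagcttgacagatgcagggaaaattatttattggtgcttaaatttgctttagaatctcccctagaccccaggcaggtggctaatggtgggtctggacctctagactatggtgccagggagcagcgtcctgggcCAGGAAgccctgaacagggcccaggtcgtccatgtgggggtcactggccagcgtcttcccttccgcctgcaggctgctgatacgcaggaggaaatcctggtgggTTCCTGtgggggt
Stab2: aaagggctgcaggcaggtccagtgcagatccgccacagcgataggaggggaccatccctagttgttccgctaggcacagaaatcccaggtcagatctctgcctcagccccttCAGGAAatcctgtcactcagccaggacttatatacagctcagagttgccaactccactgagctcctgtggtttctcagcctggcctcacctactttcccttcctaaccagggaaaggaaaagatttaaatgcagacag
CAGGAA was present on one strand or the other in the windows of Stab1, Stab2 and Clec4g, 3 of 5, and in 25.7% of 32851 mouse promoters of the same length. In Stab1 it began 117 and 13 bases before the start, the latter on the opposite strand, and in Stab2 it began 138 bases before it. The GATA motifs AGATAA and TGATAA were in none of the 5 windows, against 9.99% and 7.94% of all promoters. A match of letters is a description of the window only.

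Kdr (ENSMUSG00000062960, mm10 chr5:75932827-75978458) is the tyrosine kinase receptor through which VEGF-A acts on endothelium. It had 35.1, 23.5, 28.0 and 22.5 CPM in Sham-Ad lib libraries 3F, 4F, 6F and 10F, 48.1, 48.3, 34.8 and 28.6 in Sham-WM libraries 2F, 9F, 15F and 16F, and 18.6, 19.4, 16.1 and 32.3 in VSG libraries 1F, 8F, 11F and 18F. VSG libraries 1F, 8F and 11F were below every library of both sham groups, and 18F lay inside the Sham-WM range, so the VSG and Sham-WM groups overlapped. Means were 27.3 ± 5.75, 40.0 ± 9.85 and 21.6 ± 7.27 CPM (SD, n = 4 each). Against Sham-WM, Kdr fell by 0.89 on the log2 scale in VSG (standard error 0.23, 95% interval -1.39 to -0.38, adjusted p = 0.0151, edgeR). Genes called lower in this comparison made up 11.9% of all genes tested, and 26.9% were called in either direction. Kdr was called in all 12 fits that left out 1 library, with an adjusted p of 0.0025 without 18F and at most 0.0454, without 1F. The exact permutation test on the 4 values against 4 gave p = 0.0571 (two-sided; 0.0286 is the smallest it can give, and 0.429 after adjustment over the 30 tests of the 10 genes). With 2 RUVs factors of unwanted variation, the difference was -0.41 and was not called (adjusted p = 0.49, edgeR). That fit took all genes tested as control genes. Of 9 settings apart from leaving out a library and the second label field, Kdr was called in 8, 2 RUVr factors among them. The paper states that it used RUVSeq, also with 2 factors, to take out variation due to batch. It does not say which RUV method or which control genes were used.

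Against Sham-Ad lib, the log2 fold change of Kdr was -0.33 in VSG (95% interval -0.84 to 0.17, adjusted p = 0.388) and 0.55 in Sham-WM (95% interval 0.05 to 1.05, adjusted p = 0.182), neither called by edgeR. Both comparisons use the same 4 control libraries. The difference between VSG and Sham-WM was therefore made up of a value above and a value below the control mean, neither of which passed the test on its own.

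Bmp2 (ENSMUSG00000027358, chr2:133552159-133562885, plus strand) encodes the ligand that sinusoidal endothelial cells release toward hepatocytes. Its levels were 16.1, 10.1, 13.8 and 8.53 CPM in the Sham-Ad lib mice (3F, 4F, 6F, 10F), 23.1, 16.3, 17.7 and 16.2 in the Sham-WM mice (2F, 9F, 15F, 16F) and 8.78, 5.46, 6.85 and 17.1 in the VSG mice (1F, 8F, 11F, 18F). Again 3 VSG libraries were below all Sham-WM libraries, and 18F lay within their range. All 4 Sham-WM libraries were above all 4 Sham-Ad lib libraries, the only case among the 10 genes and 3 comparisons in which groups did not overlap. Group means were 12.2 ± 3.46, 18.3 ± 3.28 and 9.56 ± 5.22 CPM (SD, n = 4 each). Between VSG and Sham-WM, Bmp2 fell by 0.94 on the log2 scale (standard error 0.31, 95% interval -1.60 to -0.28, adjusted p = 0.0376, edgeR; exact permutation p = 0.0857). This call depended on single libraries: it was made in 5 of the 12 fits without 1 library, and was lost without 2F (adjusted p = 0.0915), 9F (0.0532), 15F (0.07), 16F (0.0611), 1F (0.0871), 8F (0.0806) or 11F (0.0879). Without 18F the difference was -1.39 (adjusted p = 0.00214). It was also lost with only these groups in the fit (0.0546) and with 2 RUVs factors (0.786). Of 9 settings apart from leaving out a library and the second label field, Bmp2 was called in 7, 2 RUVr factors among them. Sham-WM exceeded Sham-Ad lib by 0.59 (95% interval -0.06 to 1.24, adjusted p = 0.281, edgeR; exact permutation p = 0.0286, adjusted 0.429), and VSG lay below Sham-Ad lib by -0.35 (95% interval -1.01 to 0.32, adjusted p = 0.505). The share of all genes whose Sham-WM and Sham-Ad lib values did not overlap was 17.6%.

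Of the other 8 genes, none was called between VSG and Sham-WM, and DESeq2 gave the same 2 calls as edgeR (it called 27.8% of all genes it could adjust). Non-overlapping values were seen for 0 of the 10 genes in this comparison, against 26.2% of all genes tested. The median log2 fold change of the 10 was -0.27, and that of all genes tested was 0.03. Of the 10 values, 7 were below 0 and 3 above.

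**Figure D2:**
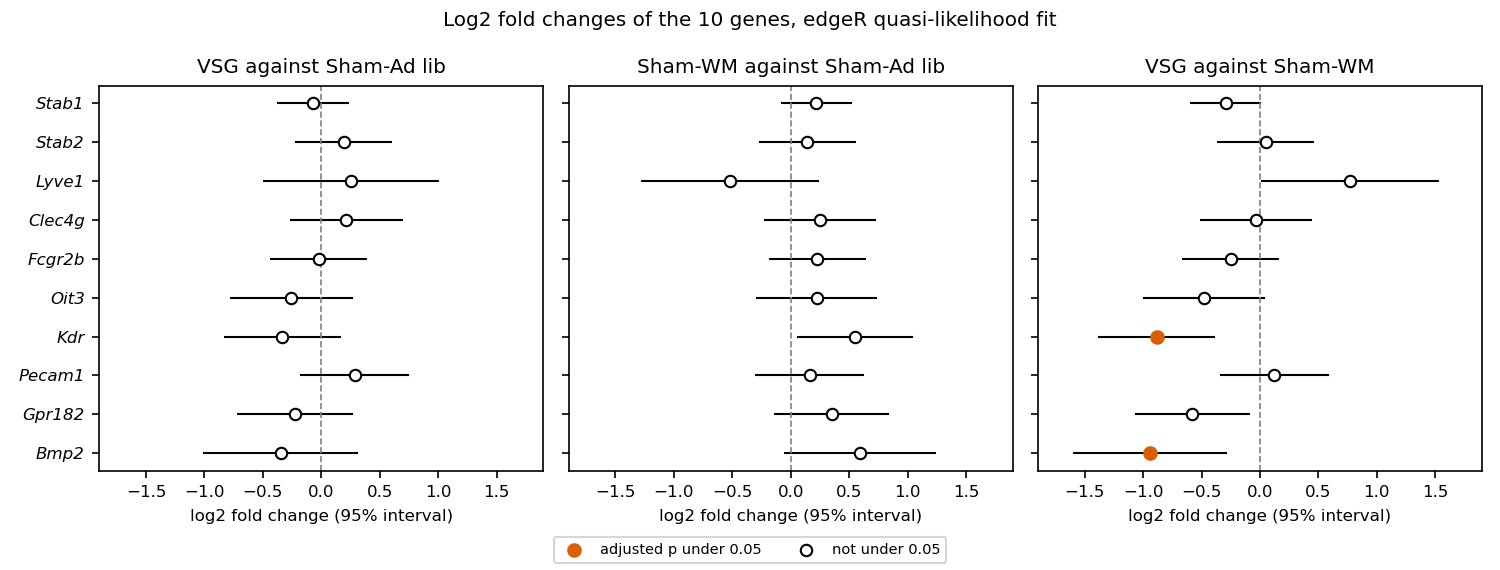
Log2 fold change (points) and 95% interval (lines) of each of the 10 genes in the 3 comparisons, with filled points for an adjusted p under 0.05. Only Kdr (-0.89) and Bmp2 (-0.94) are filled, both in VSG against Sham-WM, and the interval of Lyve1 is the widest in that comparison.

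Gpr182 (ENSMUSG00000058396, chr10:127747276-127751732, minus strand), an endothelial receptor that takes up chemokines without signalling through G proteins, was nearest to the threshold. Levels were 19.3, 20.4, 21.2 and 16.6 CPM in the Sham-Ad lib mice (3F, 4F, 6F, 10F), 31.8, 30.8, 18.9 and 17.3 in the Sham-WM mice (2F, 9F, 15F, 16F) and 18.6, 16.6, 10.2 and 20.6 in the VSG mice (1F, 8F, 11F, 18F). Sham-WM libraries 2F and 9F stood above all others, while 15F and 16F lay among those of the other groups. The log2 fold change between VSG and Sham-WM was -0.58 (95% interval -1.07 to -0.08, adjusted p = 0.0767, edgeR). It passed without 18F, without 16F and with 2 RUVr factors. The 3′ end of Gpr182 overlaps that of Zbtb39 on the opposite strand, which had a mean of 193 counts. The sources used here do not say whether counting used the strand, so reads in the overlap may have been assigned to either gene or to none.

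Oit3 (ENSMUSG00000009654, chr10:59422958-59441778), a gene for a zona pellucida domain protein, had 19.7, 15.8, 20.2 and 16.2 CPM in the Sham-Ad lib mice, 25.0, 25.1, 16.5 and 17.2 in the Sham-WM mice and 15.8, 11.4, 9.49 and 23.3 in the VSG mice, in the same order of libraries. Its VSG values ran from the lowest of all 12 libraries (11F) to the third highest (18F). The log2 fold change between VSG and Sham-WM was -0.48 (95% interval -1.0 to 0.04, adjusted p = 0.155, edgeR).

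Stab1 and Stab2 encode stabilin-1 and stabilin-2, the large scavenger receptors that clear modified lipoproteins and other ligands from blood. Stab1 (ENSMUSG00000042286, chr14:31139013-31168641) had 29.2, 30.9, 27.8 and 23.0 CPM in the Sham-Ad lib mice, 35.5, 32.6, 32.8 and 28.3 in the Sham-WM mice and 27.7, 24.3, 20.7 and 32.8 in the VSG mice. VSG libraries 1F, 8F and 11F lay below the lowest Sham-WM library, as for Kdr and Bmp2, but by less. Its log2 fold change between VSG and Sham-WM was -0.29 (95% interval -0.60 to 0.01, adjusted p = 0.138, edgeR). Stab2 (ENSMUSG00000035459, chr10:86841198-87008025) had 37.1, 34.1, 31.5 and 23.5 CPM in the Sham-Ad lib mice, 37.8, 38.3, 32.1 and 31.3 in the Sham-WM mice and 42.5, 29.1, 25.5 and 47.1 in the VSG mice. Its VSG libraries lay on both sides of the Sham-WM range, 1F and 18F above it and 8F and 11F below. The log2 fold change between VSG and Sham-WM was 0.05 (95% interval -0.36 to 0.46, adjusted p = 0.872), and its sign turned with library totals alone as the scaling (-0.00076). The 3′ end of Stab1 overlaps that of Nt5dc2 on the opposite strand, which had a mean of 108.9 counts, and reads there may likewise have been assigned to either gene or to none.

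Lyve1 (ENSMUSG00000030787, chr7:110850607-110863239), the hyaluronan receptor shared with lymphatic endothelium and some macrophages, was the only gene of the 10 with a higher mean in VSG than in Sham-WM by more than 0.2 on the log2 scale. It had 7.87, 9.93, 7.36 and 8.34 CPM in the Sham-Ad lib mice, 9.58, 3.28, 5.76 and 4.73 in the Sham-WM mice and 7.83, 9.60, 4.97 and 17.3 in the VSG mice. Sham-WM libraries 9F, 15F and 16F were below every Sham-Ad lib library, 2F was among the highest of them, and VSG ranged from 4.97 (11F) to the highest value of all (18F). The log2 fold change was 0.77 (95% interval 0.01 to 1.53, adjusted p = 0.12, edgeR) between VSG and Sham-WM and -0.52 (95% interval -1.28 to 0.24, adjusted p = 0.44) between Sham-WM and Sham-Ad lib. It was called between VSG and Sham-WM when 2F or 11F was left out. Of the 5 lymphatic markers, Pdpn, Ccl21a and Mmrn1 had group means under 1 CPM and were not tested, and Prox1, also a hepatocyte gene, had 126 CPM in Sham-WM and 136 in VSG.

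Clec4g and Fcgr2b bind glycans and immune complexes respectively. Clec4g (ENSMUSG00000074491, chr8:3707064-3720651), the C-type lectin LSECtin, had 37.2, 26.0, 36.7 and 23.6 CPM in the Sham-Ad lib mice, 47.5, 37.7, 33.4 and 28.3 in the Sham-WM mice and 45.0, 23.2, 32.5 and 42.6 in the VSG mice. The 3 groups covered much the same range, and the log2 fold change between VSG and Sham-WM was -0.04 (95% interval -0.51 to 0.44, adjusted p = 0.921, edgeR). Fcgr2b (ENSMUSG00000026656, chr1:170958617-170976547), the inhibitory IgG receptor found on sinusoidal endothelium and also on Kupffer and B cells, had 49.5, 28.8, 41.6 and 28.5 CPM in the Sham-Ad lib mice, 47.5, 50.4, 42.6 and 33.3 in the Sham-WM mice and 35.7, 30.1, 34.9 and 45.3 in the VSG mice. The groups again overlapped. Its log2 fold change was -0.25 between VSG and Sham-WM (95% interval -0.67 to 0.17, adjusted p = 0.349).

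Pecam1 (ENSMUSG00000020717, chr11:106654217-106750628), the adhesion molecule CD31 of all endothelium, platelets and many leucocytes, had 10.8, 14.1, 16.1 and 13.4 CPM in the Sham-Ad lib mice, 17.7, 17.5, 14.0 and 11.8 in the Sham-WM mice and 21.3, 16.5, 9.57 and 18.8 in the VSG mice. VSG held both the highest (1F) and the lowest (11F) value. The log2 fold change between VSG and Sham-WM was 0.12 (95% interval -0.34 to 0.59, adjusted p = 0.699, edgeR).

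Against Sham-Ad lib, 0 of the 10 genes were called after VSG, by edgeR (which called 0.751% of all genes) or by DESeq2 (8.40%), and 0 had an unadjusted p under 0.05. Log2 fold changes ran from -0.35 (Bmp2) to 0.29 (Pecam1), 6 below and 4 above 0, with a median of -0.05 beside 0.03 for all genes. The 95% intervals reached from -1.01 (Bmp2) to 1.01 (Lyve1). Values of the groups overlapped for all 10 genes, as against 9.21% of all genes without overlap. After Sham-WM, 0 of 10 were called by edgeR (6.99% of all genes) or DESeq2 (10.4%), and 1, Kdr, had an unadjusted p under 0.05. Of the 10 log2 fold changes, 9 were above 0, the exception being Lyve1, and their median was 0.23, beside 0.00079 for all genes.

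The 10 genes also varied together between animals of 1 group. After subtraction of group means, all 45 pairwise correlations across the 12 libraries were positive, with a median Pearson r of 0.69 and a range from 0.12 (Lyve1 and Fcgr2b) to 0.92 (Stab1 and Stab2). These correlations are descriptions across 12 libraries, which also share their scaling. They were not computed for other sets of genes, so they are not shown to be particular to these 10. Library 11F had the smallest total count and the lowest TMM factor (0.879). Library 18F was the highest of the VSG libraries for 8 of the 10 genes, on average 0.53 above its group mean on the log2 scale, and 11F the lowest for 7, on average -0.44. In Sham-WM, 2F was the highest for 6 genes and 16F the lowest for 8, and in Sham-Ad lib 10F was the lowest for 7.

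**Figure D3:**
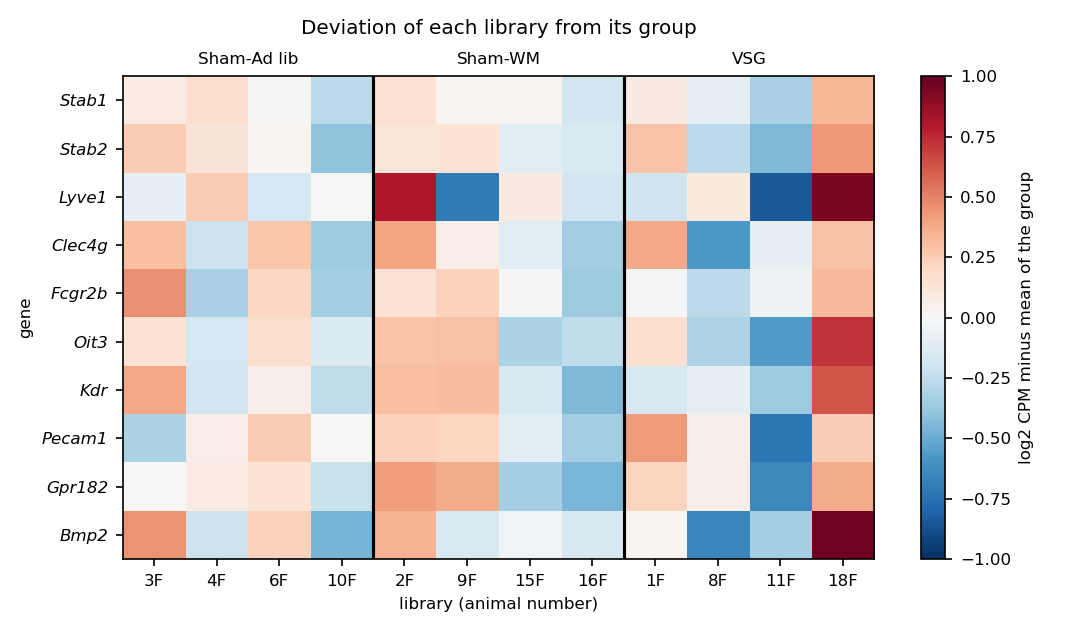
Deviation of log2 CPM from the mean of the group for each of the 10 genes (rows) in each of the 12 libraries (columns), red above and blue below the mean. Columns are largely of 1 colour, red for 2F and 18F and blue for 10F, 16F and 11F, and VSG shows the strongest colours.

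Library 18F also differed from the other VSG libraries in markers of other cells. Albumin took 9.15% of its counts, against 4.89% to 5.71% in 1F, 8F and 11F. The summed level of 5 neutrophil markers was 21.3 CPM in 18F and 99.5 to 620 CPM in the other 3, and that of 10 Kupffer cell markers was 659 CPM and 880 to 1828 CPM. When 18F was left out, 5 of the 10 genes were called between VSG and Sham-WM, namely Stab1, Oit3, Kdr, Gpr182 and Bmp2, all lower in VSG, and 29.1% of all genes tested were called in that fit (16.2% higher, 13.0% lower). As 18F was the highest VSG library for these genes, leaving it out lowers their VSG means. The part of these other cells in the result was not tested.

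Each gene was also expressed relative to the mean log2 level of the other 9 in the same library, a measure chosen after the values were seen and given without a test. On this scale Kdr was 0.13 ± 0.21 in VSG and 0.82 ± 0.18 in Sham-WM (SD, n = 4), and the groups did not overlap, 18F included. The relative level of Bmp2 was -1.26 ± 0.42 in VSG and -0.41 ± 0.18 in Sham-WM, also without overlap. The relative level of Lyve1 differed in the other direction, at -1.20 ± 0.46 in VSG and -2.32 ± 0.61 in Sham-WM, and Stab2 had 0.96 ± 0.13 and 0.63 ± 0.16, both without overlap. For the other 6 genes the groups overlapped on this scale. Of all genes tested, set against the mean of the 10, 11.9% did not overlap between VSG and Sham-WM, and 26.2% did not on plain log2 CPM. The 10 genes varied together, so this scale takes away spread that they share, which it need not do for other genes. Shares of all genes on this scale are therefore not a like background for the 10. Against Sham-Ad lib, Kdr in VSG (difference -0.32, where 2.24% of all genes did not overlap) and Lyve1 in Sham-WM (difference -0.91, 12.3%) also did not overlap, and the other 9 genes did in each comparison.

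Per kilobase of exon, Clec4g had the highest level of the 10, at 14.0 ± 3.31 CPM per kb (SD over 12 libraries), and exceeded the next gene in 12 of 12 libraries. Fcgr2b (6.74 ± 1.40) and Oit3 (6.44 ± 1.77) followed, with Fcgr2b above Oit3 in 5 of 12 libraries, so their order did not hold beyond the spread. Oit3 exceeded Gpr182 (5.11 ± 1.5) in 11 libraries and Gpr182 exceeded Stab2 (3.90 ± 0.778) in 9. Stab2, Bmp2 (3.76 ± 1.5), Kdr (3.28 ± 1.18), Stab1 (2.80 ± 0.432), Lyve1 (2.76 ± 1.24) and Pecam1 (2.43 ± 0.558) differed from their neighbours by less than the spread between libraries.

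Genes outside the 10 were ranked by how closely their log2 CPM followed the mean scaled level of the 10 across the 12 libraries. Of 10814 genes ranked, the closest were Tspan7 (Pearson r = 0.96), Gpihbp1, Cemip2, Flt4, Shank3, Cyp4b1, Dnase1l3, Mindy2, Flt1 and Thbd (0.88). Gpihbp1 is the capillary endothelial protein that carries lipoprotein lipase, Flt1 and Flt4 are the other two VEGF receptors, and Thbd encodes thrombomodulin. Among the 10 genes themselves, r with this mean, to which each contributes, ran from 0.24 (Lyve1) to 0.92 (Oit3).

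Other genes of endothelium were read from lists written with earlier results of these data known. Between VSG and Sham-WM, 6 of 17 pan-endothelial genes were called, all lower in VSG, and 11 were not, with a median log2 fold change of -0.56 beside 0.03 for all genes. Tek, the angiopoietin receptor TIE2, fell by 0.89 (standard error 0.22, adjusted p = 0.0107) and Ptprb, the phosphatase VE-PTP that opposes it, by 0.83 (standard error 0.23, adjusted p = 0.0203, edgeR). Tie1, Eng, Emcn and S1pr1 were the other 4. Genes called in either direction made up 26.9% of all genes, 15.0% higher and 11.9% lower. Without 18F, 9 of the 17 were called lower, where 13.0% of all genes were. Refits of the lists were added after the values were seen, and only 18F was left out in them. Library 18F had the highest summed level of these genes in VSG (259 CPM), so leaving it out lowers their VSG mean. Between Sham-WM and Sham-Ad lib, 1 of the 17, the sphingosine 1-phosphate receptor S1pr1, was called, 1.88-fold higher in Sham-WM (adjusted p = 0.00476), and after VSG 0 of 17 were. Of all genes, 6.99% and 0.751% were called in these comparisons.

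Of 13 other genes of sinusoidal endothelium tested, 3 were lower in VSG than in Sham-WM, 2 higher and 8 not called. The shares of all genes were 11.9% lower and 15.0% higher. Ehd3, an endocytic recycling protein, was 70.4 ± 17.8 CPM in Sham-WM and 25.6 ± 7.61 in VSG (2.75-fold lower, adjusted p = 0.00125), and the water channel Aqp1 and Plxnc1 were also lower. Clec1b, a lectin receptor also made by platelets and Kupffer cells, was 2.56-fold higher (adjusted p = 0.00202), and Ctsl, the lysosomal protease cathepsin L made by most cells, was higher. Clec1b was also the one gene of this list called after VSG against Sham-Ad lib (2.28-fold, adjusted p = 0.0442), where 0.751% of all genes were called. Without 18F, 6 of the 13 were called lower and 2 higher between VSG and Sham-WM, where 13.0% and 16.2% of all genes were. Cd209b, the remaining gene listed, was below the filter.

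**Figure D4:**
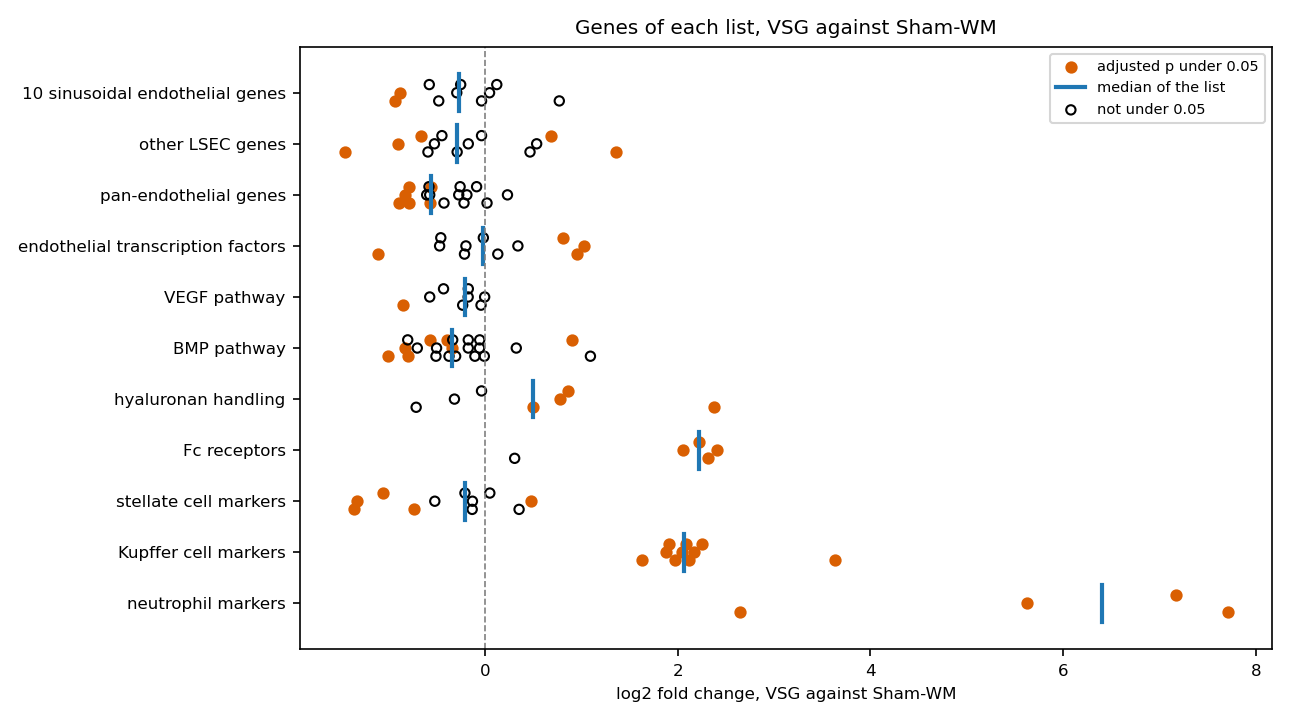
Log2 fold change between VSG and Sham-WM (x axis) of every tested gene in 11 lists (rows), filled where the adjusted p was under 0.05, with the median of each list as a vertical bar. The 10 sinusoidal genes and the pan-endothelial genes have medians of -0.27 and -0.56, and the Kupffer cell and neutrophil markers lie at 2.07 and 6.40.

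The VEGF pathway holds the ligands and co-receptors of Kdr. Of 8 genes tested, 1 was called between VSG and Sham-WM, the co-receptor Nrp2, 1.80-fold lower in VSG (adjusted p = 0.0311). Of all genes tested, 26.9% were called in that comparison. Vegfa, the ligand, had 88.4 ± 13.6 CPM in the Sham-Ad lib mice, 118 ± 22.2 in the Sham-WM mice and 88.0 ± 21.1 in the VSG mice, a log2 fold change of -0.43 between VSG and Sham-WM that was not called (adjusted p = 0.0852). The receptors Flt1 and Flt4 had values of -0.57 and -0.17 and were not called. None of the 8 was called against Sham-Ad lib after VSG or after Sham-WM, where 0.751% and 6.99% of all genes were.

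In the BMP pathway, 7 of 22 genes were called between VSG and Sham-WM, 6 lower and 1 higher, with a median of -0.34. Of all genes tested, 26.9% were called in this comparison. Without 18F, 5 of the 22 were called lower and 1 higher, where 13.0% and 16.2% of all genes were. Bmp6, the second endothelial ligand that induces hepcidin, had 3.57 ± 0.412 CPM in Sham-WM and 1.75 ± 0.896 in VSG (2.01-fold lower, adjusted p = 0.0275), and Gdf2, the gene of BMP9 made by stellate cells, was also lower. The receptor genes Bmpr1a and Eng (also in the pan-endothelial list), the signal transducer Smad5 and the target Id3 were the other 4. Acvrl1, the endothelial receptor ALK1, was 1.88-fold higher in VSG (adjusted p = 0.0363). Hamp, which encodes hepcidin, had 212 ± 45.4 CPM in the Sham-Ad lib mice, 414 ± 131 in the Sham-WM mice and 237 ± 264 in the VSG mice, and was not called between VSG and Sham-WM (log2 fold change -0.80, adjusted p = 0.336). After Sham-WM, the BMP target Id3 and the inhibitor Smad7 rose against Sham-Ad lib, by 1.33 and 0.79 on the log2 scale (adjusted p = 0.0126 and 0.0465, edgeR), and after VSG 0 of 22 genes were called. The shares of all genes called against Sham-Ad lib were 6.99% (Sham-WM) and 0.751% (VSG).

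Among 11 endothelial transcription factors, Gata4, which keeps the sinusoidal identity of these cells, was 12 ± 1.24 CPM in the Sham-Ad lib mice, 21.0 ± 3.87 in the Sham-WM mice and 9.74 ± 2.26 in the VSG mice. It was 1.76-fold higher in Sham-WM than in Sham-Ad lib (adjusted p = 0.016) and 2.16-fold lower in VSG than in Sham-WM (adjusted p = 0.00155, edgeR). Klf4 (2.04-fold, adjusted p = 0.0327, edgeR), Klf2 and Fli1 were higher in VSG than in Sham-WM, and the other 7 factors were not called. Of all genes tested, 26.9% were called in this comparison. Without 18F, 2 of the 11 factors were called higher and 2 lower, where 16.2% and 13.0% of all genes were. Klf2, Klf4 and Fli1 are also expressed by leucocytes, and which cells the Gata4 transcripts of whole liver came from was not tested.

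Hyaluronan and IgG are ligands of the scavenger and Fc receptors of these cells. Between VSG and Sham-WM, 15.0% of all genes tested were called higher. In the hyaluronan list, 4 of 7 tested genes were higher in VSG than in Sham-WM, among them Cd44 (5.18-fold, adjusted p = 0.00423), Hexa and Hyal2, and Has2 was at 0 counts in every library. Hyal2, a hyaluronidase, was lower in Sham-WM than in Sham-Ad lib (1.39-fold, adjusted p = 0.0168). Of 5 other Fc receptor genes, Fcgr4 (5.29-fold, adjusted p = 0.00258), Fcgr3 (4.99-fold, adjusted p = 0.00136), Fcgr1 and Fcer1g were higher in VSG than in Sham-WM, while Fcgr2b had a log2 fold change of -0.25. Fcer1g, the shared signalling chain, was also called after VSG against Sham-Ad lib (3.60-fold, adjusted p = 0.0493, edgeR). Kupffer cell and neutrophil markers were higher in VSG than in Sham-WM too, with median log2 fold changes of 2.07 and 6.40. Which cells the transcripts of the Fc receptor and hyaluronan lists came from was not tested.

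Markers of blood and resident immune cells differed between the groups in the same libraries. Of all genes tested, 15.0% were called higher in VSG than in Sham-WM. After VSG against Sham-Ad lib, 0.751% were called in either direction. All 10 Kupffer cell markers were higher in VSG than in Sham-WM, led by Marco (12.4-fold, adjusted p = 0.00609) and Adgre1 (4.76-fold, adjusted p = 0.00526), with summed levels of 202 to 646 CPM in Sham-Ad lib, 177 to 297 in Sham-WM and 659 to 1828 in VSG. Against Sham-Ad lib, Clec4f and Vsig4 were called (2.71-fold and 3.30-fold, adjusted p = 0.0435 for both). All 4 tested neutrophil markers were higher in VSG than in Sham-WM, S100a9 and S100a8 most (209-fold and 144-fold as fitted, adjusted p = 0.00122 and 0.00135), with sums over 5 markers of 1.03 to 14.5, 2.51 to 3.11 and 21.3 to 620 CPM in the 3 groups. After VSG against Sham-Ad lib, 3 of the 4 were called, S100a8 and S100a9 (adjusted p = 0.041 for both) and Retnlg (36.1-fold as fitted, adjusted p = 0.0442). Of the B and plasma cell markers, 3 of 5 were higher in VSG than in Sham-WM, with sums over 6 markers of 3.95 to 8.26, 4.22 to 6.93 and 10.2 to 22.6 CPM. Jchain was 7.98-fold higher (adjusted p = 0.00205), and 6.84-fold higher than in Sham-Ad lib (adjusted p = 0.0435). Of the T and NK cell markers, 2 of 3 were higher, Nkg7 (4.01-fold, adjusted p = 0.00624) and Cd3g (3.15-fold, adjusted p = 0.0178), with sums over 6 markers of 1.89 to 3.11, 1.24 to 3.26 and 3.47 to 6.94 CPM. Ly6g, a defining neutrophil marker that was under the filter, was at 0 in all libraries of both sham groups, and no other marker of these 4 lists was at 0 in every library of a group.

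Markers of hepatocytes and stellate cells, the neighbours of sinusoidal endothelium, were lower in part. Of all genes tested, 11.9% were called lower and 15.0% higher in VSG than in Sham-WM. Of 6 hepatocyte markers, Cps1 (1.77-fold, adjusted p = 0.0174) and Alb (1.66-fold, adjusted p = 0.0294) were lower in VSG than in Sham-WM, and the summed level was 101215 to 117178 CPM in Sham-Ad lib, 118190 to 145270 in Sham-WM and 73322 to 116489 in VSG. Of 11 stellate cell markers, 4 were lower and 1 higher. Hgf (2.57-fold, adjusted p = 0.00922) and Lrat, the retinyl ester synthase (2.51-fold, adjusted p = 0.00174), had the largest differences, and Lrat was 1.76-fold higher in Sham-WM than in Sham-Ad lib (adjusted p = 0.0384). Summed levels of the stellate list were 492 to 660 CPM in Sham-Ad lib, 483 to 582 in Sham-WM and 353 to 539 in VSG. Reln, called lower in VSG (2.09-fold, adjusted p = 0.00804), stands in both the stellate and the lymphatic list and was the 1 of 2 lymphatic markers tested that was called. None of 5 cholangiocyte markers was called by edgeR (2 had an unadjusted p under 0.05), with sums of 39.1 to 72.5, 37.2 to 43.6 and 37.2 to 94.3 CPM. The part of any of these shifts in the levels of Kdr and Bmp2 was not tested.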

How the data were processed

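Poly(A) RNA of whole liver was made into directional libraries. The authors aligned reads to mm10 with TopHat2 2.1.1, counted those on genes with featureCounts, and deposited whole-number counts without normalization; the annotation and the use of strand are not given in the sources used here. All 12 columns were used. Genes were named and placed with GENCODE M21 on mm10. Libraries were grouped by the animal number that titles and column names share; another label field pairs them differently, and grouping by it was run as an alternative. No label gives replicate numbers shared between groups. Group means were fitted to all 12 libraries in edgeR 4.0.16 (R 4.3.3; filterByExpr, minimum count 10, minimum total 15; TMM factors of 0.879 to 1.04; log2 CPM with a prior count of 2). Alternatives were DESeq2 1.42.0, other scalings and filters, 2 RUVs or RUVr factors written from their definitions, and leaving out each library. DESeq2 and the RUV factors were run because the paper names DESeq2 and RUVSeq with 2 factors. Exact tests used scipy 1.17.1. Scripts were tested on simulated data. Reads carry no molecular identifiers, so counts are not independent molecules, and mice are the replicates.

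The 10 genes and all lists were chosen with earlier results of these data known. Named are all 10 genes and, per list and comparison, up to 2 called genes with the largest log2 fold change, the 10 genes most alike in pattern, and the promoter motifs of 2 factor families, GATA and ETS. Other list genes were named after their values were seen. Some genes that the rule would name are not reported here.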

Additional observations from a re-analysis of the deposited data

How the results depend on the processing

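Each of the 10 genes was refitted in 3 comparisons under 22 alternatives, which gave 660 values. Of these, 607 kept their direction and side of the threshold, 7 came to pass it, 10 no longer passed it and 36 turned in sign, all of the last for genes not called, except Kdr and Bmp2 when libraries were grouped by the second label field. Between VSG and Sham-WM, the count of 2 called genes became 0 with 2 RUVs factors, 0 with the second label field, 1 when the other group was left out of the fit, and 1 to 5 with 1 library left out. Against Sham-Ad lib it was 0 under every alternative run. The count over all genes was less stable after VSG: 98 against Sham-Ad lib, 0 to 1089 with 1 library left out (0 without 6F, 2F, 9F or 1F), 1227 with DESeq2, 6 with RUVs, 3016 with RUVr, 628 without a filter, and 0 with library totals alone, with at least 10 counts in every library, with only the groups compared or with the second label field. After Sham-WM it was 912 and ranged from 0 (second label field) to 2193 (RUVr), with 1433 by DESeq2, 1713 with RUVs, 1399 with only the groups compared and 424 to 1311 with 1 library left out, and between the treatments 3509, from 0 (second label field) and 514 (RUVs) to 5491 (RUVr) and 2196 to 3868 with 1 library left out. Other scalings shifted the median of all genes by at most -0.061.

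With the second label field, log2 fold changes after VSG against Sham-Ad lib were 0.25 (Stab1), 0.35 (Fcgr2b), 0.50 (Oit3), 0.39 (Kdr), 0.52 (Gpr182) and 0.40 (Bmp2). After Sham-WM they were 0.34 (Lyve1) and -0.11 (Bmp2). Between VSG and Sham-WM they were 0.12 (Stab1), 0.48 (Clec4g), 0.24 (Fcgr2b), 0.21 (Oit3), 0.17 (Kdr), 0.022 (Gpr182) and 0.51 (Bmp2). With 2 RUVs factors, values after VSG against Sham-Ad lib were 0.025 (Stab1), 0.35 (Fcgr2b), 0.048 (Oit3), 0.048 (Kdr) and 0.23 (Bmp2), and between VSG and Sham-WM 0.16 (Clec4g) and 0.18 (Fcgr2b). Fcgr2b was 0.0065 after VSG against Sham-Ad lib with upper quartile factors, and Stab2 -0.00076 between VSG and Sham-WM with library totals alone. With 1 library left out, values after VSG against Sham-Ad lib ran from -0.16 to 0.14 (Fcgr2b), -0.20 to 0.014 (Stab1) and -0.16 to 0.45 (Lyve1), and between VSG and Sham-WM from -0.17 to 0.11 (Clec4g), -0.11 to 0.18 (Stab2) and -0.021 to 0.31 (Pecam1). No paired analysis was possible because the animal numbers in the labels are not shared between groups. The cause of these changes was not tested.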

Other observations

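Endothelial genes of other vessel zones were also read between VSG and Sham-WM, where 26.9% of all genes were called, and 29.1% without 18F. Of 6 genes of central vein and pericentral endothelium, 1 was called, Cdh13, the T-cadherin gene, at 3.56 ± 0.478 CPM in the Sham-WM mice against 1.66 ± 0.656 in the VSG mice (SD, n = 4; 2.14-fold lower, adjusted p = 0.0416, edgeR), and 3 were called without library 18F. Of 7 portal and arterial genes, Ltbp4, a binding protein of latent TGF-beta, was lower (1.77-fold, adjusted p = 0.0373) and Msr1, also a scavenger receptor gene of macrophages, was higher (2.41-fold, adjusted p = 0.0114). None of 9 genes of capillary-type endothelium was called by edgeR (1 had an unadjusted p under 0.05), and 1 was without 18F. None of these lists held a gene called against Sham-Ad lib after VSG or after Sham-WM, where 0.751% and 6.99% of all genes were.

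Of 7 genes for adrenomedullin signalling and for chemokine ligands of Gpr182, 2 were called between VSG and Sham-WM, where 26.9% of all genes were. Cxcl13, the chemokine that attracts B cells, had 0.335 ± 0.237 CPM in Sham-WM and 18.6 ± 21.9 in VSG (log2 fold change 5.75, adjusted p = 0.00319), with a VSG spread larger than the mean. Cxcl12, made by stromal and endothelial cells, had 442 ± 111.4 CPM in Sham-WM and 279 ± 24.7 in VSG (1.59-fold lower, adjusted p = 0.0112). The part of other cell types in these values was not tested.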
